A study of Mus musculus with 6 samples.

Results

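Mitochondrial fusion and fission genes were examined in LPS-treated BV2 cells with and without PGC-1α overexpression. The genes were Mfn1, Mfn2, Opa1, Oma1, Yme1l1, Dnm1l, Fis1, Mff, Mief1 and Mief2. The list of genes was chosen with earlier results of these data known. Probes were then taken by symbol, as every probe whose accession maps to these RefSeq mouse genes, and no measured value entered that step. This gave 10 of the 23462 genes that could be named on the arrays, and 17 of 56605 probes. BV2 cells are mouse microglia immortalized for culture, and LPS (lipopolysaccharide) comes from bacterial membranes and provokes inflammation in them. Both groups received LPS, which the cell culture methods give as 500 ng/ml for 6 h without naming the arrays. The overexpressing cells carried a lentivirus with the PGC-1α coding sequence and were selected with puromycin, whereas the other 3 samples are labelled only as lacking PGC-1α overexpression and are called control arrays here. RNA of each sample was hybridized to its own Agilent one-colour array, 3 in each group, with 2 arrays of each group on slide 1 and 1 of each on slide 2.

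Mitochondria form a network that is shaped by fusion and division. Mitofusin GTPases on the outer membrane and OPA1 on the inner membrane join mitochondria, and the inner membrane proteases OMA1 and YME1L1 cut OPA1 and so set how much of its long form is present. Division is carried out by the GTPase DRP1, which is made from Dnm1l and is brought from the cytosol to the outer membrane by adaptors. PGC-1α is a transcriptional coactivator known for driving mitochondrial biogenesis, largely through the transcription factors ERRα, NRF1 and GABP.

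In these data the genes divided. The brightest probe of 3 genes was higher with PGC-1α overexpression (Fis1, Mff and Opa1), that of 3 genes was lower (Mief1, Mief2 and Oma1), and that of 4 genes did not pass the test (Mfn1, Mfn2, Dnm1l and Yme1l1). Among all probes tested on the arrays, 35.4% were called higher and 18.4% lower. The calls of Mff and Opa1 were not made after quantile normalization of the arrays, whereas those of Fis1, Mief1, Mief2 and Oma1 were. The largest difference was in Oma1, at a level 3.03-fold lower, and the largest in the other direction was in Fis1, at a level 1.76-fold higher.

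The upstream sequence of 4 of these genes is printed because binding sites of 2 factors that work with PGC-1α could be searched in it. RefSeq promoter windows of GRCm38.p6, which run from 250 bases before a transcript start to 50 bases after it, were found for 10 of 10 genes, 15 windows in all. An NRF1 site (GCGCANGCG, either strand) was found in the windows of 2 of the 10 genes, Opa1 and Oma1, against 7.03% of the 27025 genes in the table. An ETS site of the kind GABP binds (CCGGAAG, either strand) was found for 5 of the 10 genes, Dnm1l, Fis1, Mfn1, Mief1 and Yme1l1, against 9.93% of all genes. The extended half-site of ERR (TNAAGGTCA, either strand) matched 0 of the 15 windows, against 1.28% of all 32851 windows. The genes of the table were not matched to these 10 for base composition or windows per gene, so enrichment was not tested. The 250 bases before the start are shown for the 4 genes that passed the test and hold a match there, with matched bases in capitals. They lie on the plus strand, at chr16:29579084-29579333 for Opa1, chr4:103313596-103313845 for Oma1, chr5:136953025-136953274 for the first window of Fis1 and chr15:80233830-80234079 for Mief1.
Opa1: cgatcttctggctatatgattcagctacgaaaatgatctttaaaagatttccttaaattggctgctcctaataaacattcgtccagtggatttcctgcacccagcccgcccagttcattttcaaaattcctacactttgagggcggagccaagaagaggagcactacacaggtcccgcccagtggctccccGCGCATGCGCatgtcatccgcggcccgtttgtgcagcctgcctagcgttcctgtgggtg
Oma1: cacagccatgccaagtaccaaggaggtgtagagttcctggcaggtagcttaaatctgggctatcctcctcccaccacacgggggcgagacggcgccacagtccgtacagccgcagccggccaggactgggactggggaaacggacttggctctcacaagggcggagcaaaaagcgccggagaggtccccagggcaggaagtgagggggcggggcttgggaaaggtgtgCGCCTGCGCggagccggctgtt
Fis1: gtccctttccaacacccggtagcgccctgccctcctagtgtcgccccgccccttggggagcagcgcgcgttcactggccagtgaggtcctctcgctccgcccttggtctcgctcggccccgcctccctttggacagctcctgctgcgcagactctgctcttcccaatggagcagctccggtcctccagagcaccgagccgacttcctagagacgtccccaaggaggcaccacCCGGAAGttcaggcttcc
Mief1: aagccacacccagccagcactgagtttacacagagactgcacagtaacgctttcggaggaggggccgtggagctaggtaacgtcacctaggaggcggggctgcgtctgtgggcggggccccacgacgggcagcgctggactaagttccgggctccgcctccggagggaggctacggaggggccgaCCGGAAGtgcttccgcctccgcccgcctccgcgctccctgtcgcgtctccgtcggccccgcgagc

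The capitals of Opa1 hold 2 overlapping NRF1 matches, 1 on each strand, that begin 59 and 58 bases before the start, and the match of Oma1 begins 22 bases before it on the minus strand. The brightest probe of Opa1 was higher and that of Oma1 lower with PGC-1α overexpression, so on these probes the 2 genes moved in opposite directions. The Opa1 call was not made after quantile normalization (0.33, adjusted p = 0.072 from limma), and its other probe differed by -0.16 and did not pass. The ETS matches of Fis1 and Mief1 begin 18 and 65 bases before the start, and these 2 genes also moved in opposite directions. Dnm1l, Mfn1 and Yme1l1, which hold an ETS match too, did not pass the test. Mff and Mief2 passed the test and hold none of the 3 sites in their windows. A match describes the letters of the sequence and is not a measurement of binding.

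The values below are log2 intensities relative to the 75th percentile of the same array, so a level of 0 equals that percentile, and a difference is the mean with minus the mean without PGC-1α overexpression. All 17 probes were well above background on all 6 arrays and 0 were saturated, so none of them entered the test through 1 group alone. Differences were tested with limma across 38919 probes with Benjamini-Hochberg adjustment and a threshold of 0.05. With 3 arrays against 3, an exact permutation test of 1 probe cannot give a two-sided p below 0.1. The labels do not say that the arrays of a group came from separate cultures, and if they did not, the p-values measure only the spread between these samples.

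Many genes differed between these groups, which sets the scale for the counts. The median difference of all probes was 0.25 when each array was scaled by its 75th percentile and 0.05 when quantile normalization gave every array the same distribution of values. The intensity at that percentile ranged from 1617 to 1893 without and from 856 to 1268 with overexpression, so every overexpression array was the dimmer. After quantile normalization 22.9% of all probes were called higher and 20.6% lower. Of the 17 fusion and fission probes, 5 were called higher, 4 lower and 8 in neither direction. Their groups did not overlap for 5 probes that were higher and 5 that were lower, while over all probes with 6 values these shares were 41.4% and 22.2%. The counts of the 10 genes, 3 higher and 3 lower, are thus not far from the background, and the median difference of their brightest probes was 0.13, which is 0.12 below the median of all probes. That order turned after quantile normalization (0.13 against 0.05). It did so too when normexp background correction (0.14 against 0.04) or the slide as a block (0.13 against 0.05) joined quantile normalization. Without quantile normalization, the order held with normexp (0.13 against 0.31) and with the slide as a block (0.13 against 0.25). The order also turned with the values normalized by the authors (0.12 against 0.05), without the second overexpression array (0.30 against 0.23) and, narrowly, with array weights. With 1 array left out the median of the 10 genes ranged from 0.06, without the first overexpression array, to 0.30. Quantile normalization gave 1 gene called higher (Fis1) and the same 3 called lower (Mief1, Mief2 and Oma1).

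**Figure D1:**
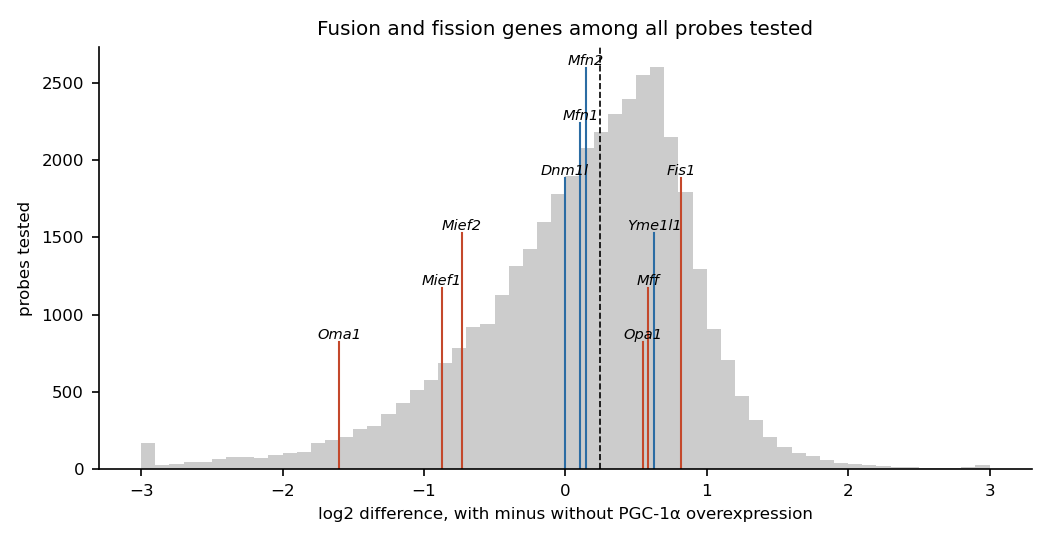
Histogram of the log2 difference (x axis, with minus without PGC-1α overexpression) of the 38919 probes tested, with values beyond 3 in either direction placed in the end bars. Vertical lines mark the brightest probe of each fusion and fission gene, red where it passed the test and blue where it did not, at a height that has no meaning, and the dashed line marks the median of all probes at 0.25. Oma1, Mief1 and Mief2 lie in the left tail and Fis1 lies farthest to the right.

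The 2 probes of Ppargc1a, the gene of PGC-1α, were close to background and neither met the filter for testing. The probe with the larger difference was at -6.21, -6.37 and -7.71 on the control arrays and at -5.70, -5.28 and -5.90 on the overexpression arrays. In each group 2 of 3 arrays measured it well above background, and its groups did not overlap, with a difference of 1.14. Without the third control array, the lowest, the difference was 0.67, and with normexp background correction it was 0.65, or 0.18 when quantile normalization followed. The other probe differed by 0.26 and its groups overlapped. Where these probes lie relative to the coding sequence in the lentivirus is not known here, so every direction refers to the arrays as labelled.

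Lineage markers were present, as 8 of 8 macrophage and microglia genes (such as Itgam, Csf1r and Cd68) were well above background on all 6 arrays. Markers of homeostatic microglia were largely absent: P2ry12, Sall1 and Cx3cr1 were well above background on 0 arrays, and Tmem119 was measured on all 6 with a difference of -2.68. Genes of other brain cells were also measured, in 3 of 4 neuronal, 3 of 3 astrocyte, 3 of 3 oligodendrocyte and 3 of 3 fibroblast markers on all 6 arrays. The summed level of lineage probes, in multiples of the 75th percentile, ran from 79.7 to 103.1 without and from 109.4 to 135.7 with overexpression. A bright Cd68 probe had no value on control array 1 and overexpression arrays 1 and 2. The lineage sums thus cover different probes and are not comparable between arrays. The brightest probes of Itgam and Cd68 differed by 0.75 and 0.46, and by 0.11 and -0.16 after quantile normalization. There those of Fcgr3 and Adgre1 were lower (-0.35 and -0.47), while the dimmer Csf1r probe was higher (0.52). The fibroblast sums ran from 18.1 to 19.7 without and from 30.3 to 37.2 with overexpression. The neuronal sums ran from 24.3 to 29.8 without and from 36.6 to 49.95 with overexpression. The fibroblast sum was mostly Col1a1 and the neuronal sum mostly 1 probe of Snap25. The brightest probes of these genes differed by 0.77 and 0.71, and by 0.22 and 0.08 after quantile normalization, where neither passed. The other Snap25 probe was well above background on 0 arrays, so the 2 Snap25 probes disagreed on whether this gene was measured. In the same lists the brightest probe of Pdgfra (-1.63, adjusted p = 2.89e-04 from limma) and Tubb3 (-0.63, adjusted p = 0.0068 from limma) were lower, and Col1a2 was higher by 1.12, and by 1.03 after quantile normalization. For astrocyte probes the sums were 0.297 to 0.352 and 0.513 to 0.665, and for oligodendrocyte probes 1.16 to 1.31 and 1.28 to 1.47. The part of these genes in the differences below was not tested. In RNA of a whole culture, fewer cells that express a gene and less of its RNA in each cell cannot be told apart.

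Genes of outer membrane fusion came first. Mfn1 and Mfn2 encode the mitofusins, which tether and join the outer membranes of neighbouring mitochondria. The brightest probe of Mfn1 was at -0.08, -0.06 and 0.20 on the control arrays and at 0.44, -0.36 and 0.29 on the overexpression arrays. The second overexpression array was the lowest of all 6 and the first the highest, so the groups overlapped. Its difference was 0.11 (standard error 0.22, adjusted p = 0.70 from limma), with a 95% interval from -0.40 to 0.62. The other probe of Mfn1 was at -0.53, -0.60 and -0.74 without and at -0.86, -0.89 and -0.74 with overexpression. These groups did not overlap, by a margin of less than 0.01 on slide 2, and the difference of -0.21 did not pass (standard error 0.13, adjusted p = 0.20 from limma). The 2 probes of Mfn1 thus had opposite signs, neither past the test.

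For Mfn2 the brightest probe was at -0.03, -0.38 and -0.43 on the control arrays and at -0.20, -0.04 and -0.17 on the overexpression arrays. The highest value belonged to a control array, and the groups overlapped. The difference was 0.15 (standard error 0.15, adjusted p = 0.44 from limma), with an interval from -0.21 to 0.50, and the other probe gave 0.22 (standard error 0.16, adjusted p = 0.29 from limma). The intervals of the brightest probes leave room for a change from -0.40 to 0.62 in Mfn1 and from -0.21 to 0.50 in Mfn2. The test thus did not show that their levels were alike.

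**Figure D2:**
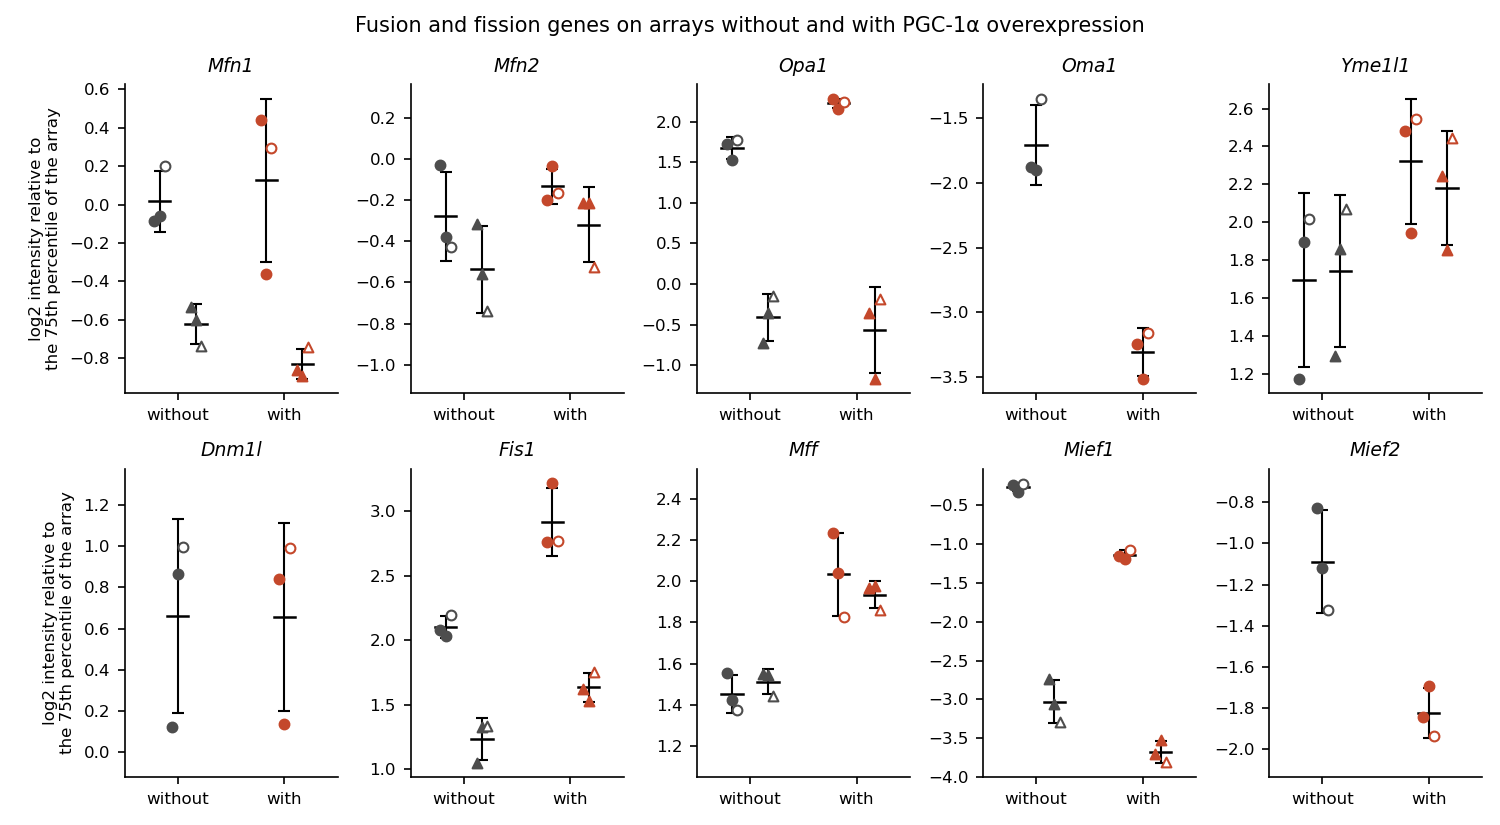
Log2 intensity relative to the 75th percentile of the array (y axis, a separate range for each gene) on arrays without (grey) and with (red) PGC-1α overexpression, for every probe of the 10 genes. Circles are the brightest probe and triangles the second, filled on slide 1 and open on slide 2, and bars show the mean ± SD of 3 arrays. The groups stand apart for Oma1, Mief1, Mief2, Fis1, Mff and the brightest probe of Opa1, and overlap for Mfn2, Yme1l1, Dnm1l and the brightest probe of Mfn1.

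Opa1 encodes the dynamin-like GTPase that fuses inner membranes and holds cristae in shape. Its brightest probe was at 1.72, 1.52 and 1.78 on the control arrays and at 2.27, 2.16 and 2.24 on the overexpression arrays. All overexpression arrays lay above all control arrays. The level was 1.47-fold higher, a log2 difference of 0.55 (standard error 0.13, adjusted p = 0.011 from limma). It was 0.60 within slide 1 and 0.46 within slide 2. After quantile normalization the difference was 0.33 and no longer passed (adjusted p = 0.072 from limma).

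The other Opa1 probe is assigned to a different RefSeq transcript of the gene and did not pass the test. It was at -0.72, -0.36 and -0.15 without and at -0.35, -1.17 and -0.18 with overexpression. The second overexpression array was far below the other 5 and the groups overlapped, with a difference of -0.16 (standard error 0.27, adjusted p = 0.65 from limma). Within each array the first probe stood 2.44, 1.88 and 1.93 above the second without overexpression and 2.63, 3.33 and 2.42 above it with overexpression. This ratio overlapped between the groups (difference 0.71, exact permutation test, two-sided p = 0.2), so a difference between the 2 probes was not shown.

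Oma1 encodes the zinc metalloprotease of the inner membrane that is activated when the membrane potential falls and then cuts OPA1, which stops inner membrane fusion. Its single probe was at -1.87, -1.90 and -1.35 on the control arrays and at -3.24, -3.52 and -3.16 on the overexpression arrays. Every overexpression array was more than 1 log2 unit below every control array, and the gap between the groups was wider than the spread within either. The level was 3.03-fold lower with PGC-1α overexpression, a difference of -1.60 (standard error 0.19, adjusted p = 7.26e-04 from limma). Of all probes tested, 3.3% had a difference as low or lower. For the brightest probes of Mief1, Mief2, Opa1, Mff and Fis1 this share was 10.5%, 13.1%, 68.4%, 70.4% and 84.6%. The difference of Oma1 was -1.49 within slide 1 and -1.81 within slide 2, and after quantile normalization it was -1.64 (adjusted p = 0.0010 from limma).

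Yme1l1 encodes the ATP-dependent protease that cuts OPA1 at another site under normal conditions and also degrades OMA1. Its brightest probe was at 1.17, 1.90 and 2.02 without and at 2.48, 1.94 and 2.55 with overexpression. The control arrays were widely spread, the second overexpression array fell among them, and the groups overlapped. The difference of 0.63 did not pass (standard error 0.26, adjusted p = 0.072 from limma), nor did that of the other probe at 0.44 (standard error 0.24, adjusted p = 0.15 from limma). With the slide as a block the brightest probe passed (0.63, standard error 0.22, adjusted p = 0.040 from limma), as it did without the second overexpression array (0.82, adjusted p = 0.041 from limma). Without the first control array it was at 0.37 (adjusted p = 0.20 from limma), and after quantile normalization at 0.39 (adjusted p = 0.295 from limma).

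The fission GTPase did not separate the groups. The single probe of Dnm1l was at 0.12, 0.87 and 1.00 on the control arrays and at 0.84, 0.14 and 0.99 on the overexpression arrays. Each group held 1 low and 2 high arrays, and the low arrays were on slide 1 in both. The difference was below 0.01 in size (standard error 0.29, adjusted p = 0.99 from limma), and its interval ran from -0.68 to 0.67. With this spread a smaller change in Dnm1l was not detectable.

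The 4 genes of outer membrane proteins linked to fission divided into 2 that were higher and 2 that were lower. Fis1 encodes a small tail-anchored protein first known as the fission receptor in yeast. The brightest probe of Fis1 was at 2.08, 2.03 and 2.19 on the control arrays and at 2.76, 3.22 and 2.77 on the overexpression arrays. All 3 overexpression arrays were higher, the second by the most. The level was 1.76-fold higher, a difference of 0.82 (standard error 0.16, adjusted p = 0.0055 from limma), and after quantile normalization it was 0.48 (adjusted p = 0.021 from limma). The other probe of Fis1 was at 1.04, 1.32 and 1.33 without and at 1.62, 1.53 and 1.75 with overexpression. Its groups did not overlap either, and the difference was 0.40 (standard error 0.14, adjusted p = 0.045 from limma), a call that ended after quantile normalization (0.25, adjusted p = 0.20 from limma).

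Mff encodes the adaptor regarded as a main receptor of DRP1 in mammalian cells. Its brightest probe was at 1.55, 1.42 and 1.37 on the control arrays and at 2.23, 2.04 and 1.83 on the overexpression arrays. Its other probe was at 1.55, 1.54 and 1.44 without and at 1.97, 1.98 and 1.86 with overexpression. On both probes the groups stood apart and the overexpression arrays were higher. The differences were 0.58 (standard error 0.15, adjusted p = 0.014 from limma) and 0.42 (standard error 0.12, adjusted p = 0.022 from limma). After quantile normalization they were 0.39 and 0.23 and neither passed (adjusted p = 0.054 and 0.12 from limma), and without the first overexpression array the brightest probe was at 0.48 (adjusted p = 0.057 from limma).

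Mief1 and Mief2 encode the related adaptors MiD51 and MiD49, which also recruit DRP1 to the outer membrane. The brightest probe of Mief1 was at -0.24, -0.33 and -0.23 on the control arrays and at -1.16, -1.19 and -1.08 on the overexpression arrays. The arrays of each group lay within 0.12 of each other, so the gap was many times the spread. The level was 1.83-fold lower, a difference of -0.87 (standard error 0.12, adjusted p = 0.0014 from limma). The other probe of Mief1 was at -2.74, -3.05 and -3.29 without and at -3.71, -3.51 and -3.80 with overexpression. It was lower on every overexpression array as well, with a difference of -0.65 (standard error 0.17, adjusted p = 0.016 from limma). With normexp background correction this probe was at -0.29 and did not pass (adjusted p = 0.13 from limma).

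The probe of Mief2 was at -0.83, -1.12 and -1.32 on the control arrays and at -1.84, -1.69 and -1.94 on the overexpression arrays. These groups did not overlap either, and the arrays with overexpression were lower. The level was 1.66-fold lower, a difference of -0.73 (standard error 0.16, adjusted p = 0.0081 from limma). After quantile normalization the brightest probe of Mief1 and the probe of Mief2 were at -0.85 and -0.71, and both passed (adjusted p = 0.0014 and 0.012 from limma).

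**Figure D3:**
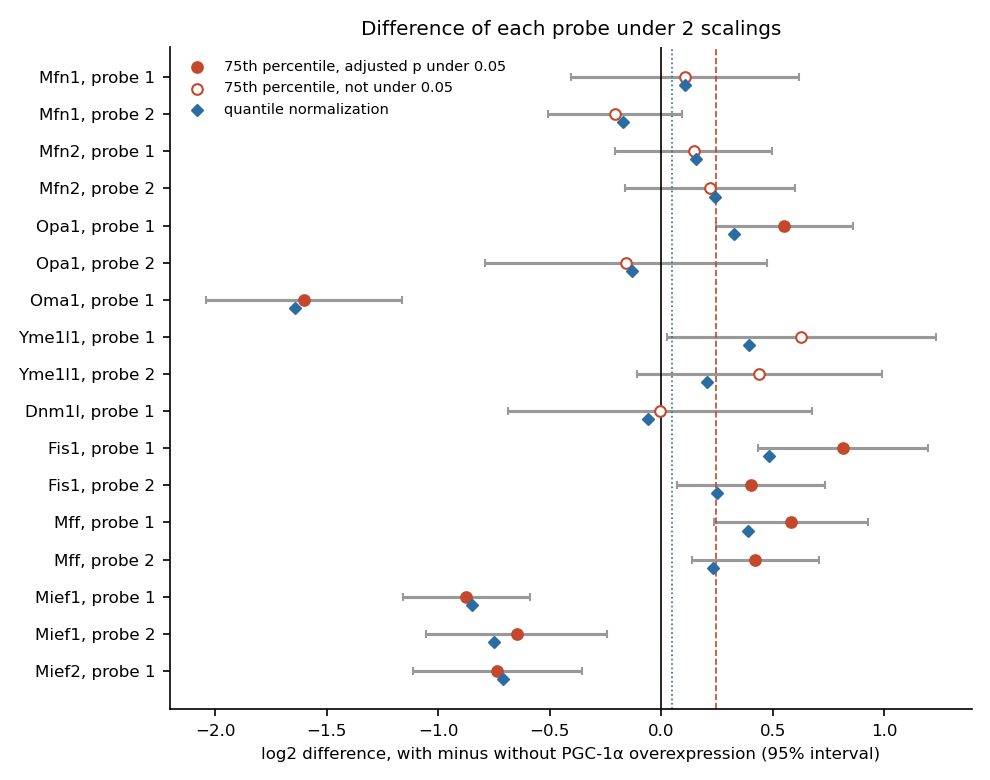
Log2 difference (x axis, with minus without PGC-1α overexpression) of each of the 17 probes (y axis, probe 1 being the brightest of its gene). Circles show values relative to the 75th percentile with 95% intervals, filled where the adjusted p was under 0.05, diamonds show quantile normalization, and the dashed and dotted lines mark the median of all probes under these scalings, 0.25 and 0.05. Diamonds of Opa1, Fis1 and Mff lie closer to 0 than their circles, while those of Oma1, Mief1 and Mief2 lie near their circles.

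Of the 7 genes with 2 probes, 5 had probes of the same sign, and Mfn1 and Opa1 did not. Both probes passed for 3 genes (Fis1, Mff and Mief1), 1 of the 2 passed for Opa1, and 0 passed for Mfn1, Mfn2 and Yme1l1. Within an array, the ratio of the 2 probes of a gene overlapped between the groups for 6 of these 7 genes. The exception was Yme1l1, at a difference of 0.19 (exact permutation test, two-sided p = 0.1, adjusted p = 0.35 over the 7 genes).

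Because a constant that scales an array cancels in the ratio of 2 of its probes, 10 pairs of genes with related roles were compared within arrays. The groups stood apart for 6 pairs, each at the smallest p this design allows (exact permutation test, two-sided p = 0.1, adjusted p = 0.167 over the 10 pairs). Over all single probes the groups stood apart for 41.4% in the higher and 22.2% in the lower direction, and the share among all pairs of probes was not computed, so nothing is read from this count. The difference in a ratio is the difference between the 2 genes' own differences and is no separate measurement. The log2 ratio of Fis1 to Mief1 was 2.32, 2.36 and 2.42 without and 3.91, 4.41 and 3.84 with overexpression. Every overexpression array lay at least 1 log2 unit above every control array, with a difference in ratio of 1.69. Ratios of Fis1 to Mief2, Mff to Mief1 and Mff to Mief2 differed by 1.55, 1.46 and 1.32. In each of these pairs 3 of 3 overexpression arrays had a higher ratio than all control arrays. Fis1 against Mff differed by 0.23 and Mief1 against Mief2 by -0.14, and both overlapped (exact permutation test, two-sided p = 0.3 and 0.5).

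The same held for the genes of OPA1 processing. The log2 ratio of Opa1 to Oma1 was 3.59, 3.42 and 3.12 without and 5.51, 5.68 and 5.40 with overexpression, a 4.44-fold difference in ratio. The ratio of Yme1l1 to Oma1 was 3.04, 3.79 and 3.37 without and 5.72, 5.46 and 5.71 with overexpression, a difference of 2.23. In both pairs the overexpression arrays lay above all control arrays, on each slide. Opa1 against Yme1l1 (-0.08) and Mfn1 against Mfn2 (-0.04) overlapped. Quantile normalization, which is not a single constant per array, lowered the difference in the ratio of Fis1 to Mief1 from 1.69 to 1.33. That of Opa1 to Oma1 went from 2.15 to 1.97. With the values normalized by the authors these differences were 1.25 and 1.78.

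**Figure D4:**
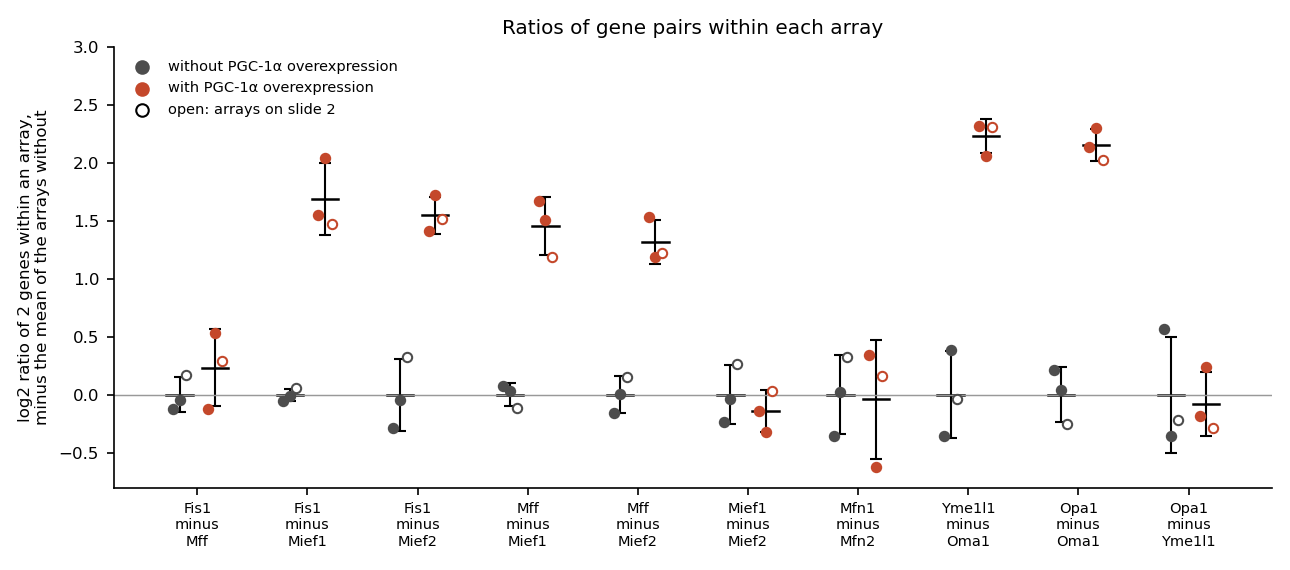
Log2 ratio of 2 genes within each array (y axis, relative to the mean of the control arrays) for 10 pairs (x axis), with points for arrays and bars for the mean ± SD of 3 arrays. The 6 pairs of Fis1 or Mff against Mief1 or Mief2 and of Yme1l1 or Opa1 against Oma1 lie between 1.32 and 2.23 on average with overexpression and do not overlap with the control arrays.

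Genes that act around this machinery were counted from fixed lists, again by the brightest probe and to be read against the 35.4% of all probes called higher and the 18.4% called lower. Scaffolds and proteases of the inner membrane that bear on OPA1 had 9 genes tested, of which 4 were called higher, 0 lower and 5 neither, with a median difference of 0.37. Parl, a rhomboid protease, had a difference of 0.75 (standard error 0.20, adjusted p = 0.020 from limma, 2 control and 3 overexpression arrays). Its other probes gave 0.43 (adjusted p = 0.028 from limma) and 0.44, which did not pass (adjusted p = 0.073 from limma). Chchd3, a subunit of the cristae junction complex, had a difference of 0.50 (standard error 0.13, adjusted p = 0.016 from limma). After quantile normalization 0 of the 9 genes were called, and the median of the list was 0.07.

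Outer membrane fusion helpers had 4 genes tested, of which 0 were called higher and 2 lower, with a median of -0.44. These were Miga2 and Miga1, the mitoguardins, which promote fusion through a phospholipase. Miga2 was at -0.18, -0.20 and -0.41 on the control arrays and at -1.18, -1.12 and -1.16 on the overexpression arrays. Every overexpression array was lower, with a difference of -0.89 (standard error 0.13, adjusted p = 0.0016 from limma). Miga1 differed by -0.72 (adjusted p = 0.024 from limma, 2 control and 3 overexpression arrays). Both calls of this list were also made after quantile normalization.

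Fission helpers and adaptors had 8 of 9 genes tested, with 2 called higher, 2 lower and 4 neither, and a median of 0.14. Inf2, a formin that assembles actin at sites of division, was lower by a difference of -0.80 (adjusted p = 0.0052 from limma). Slc25a46, an outer membrane carrier-like protein, had a difference of -0.96 (adjusted p = 0.011 from limma, 2 control and 3 overexpression arrays), while its other probe gave -0.14 and did not pass. The calls of higher level were those of Spire1, an actin nucleator (0.45, adjusted p = 0.048 from limma), and of Mtfr2 (0.60, adjusted p = 0.0092 from limma), whose other probe was lower (-1.19, adjusted p = 0.0022 from limma). Neither higher call was made after quantile normalization, where Mtfr2 was at -0.03.

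Regulators by ubiquitin, SUMO and phosphorylation had 8 genes tested, with 2 called higher, 3 lower and 3 neither, and a median of 0.19. Mul1, an outer membrane ubiquitin and SUMO ligase that acts on mitofusin and DRP1, had the largest difference of all genes in these lists. It was at 0.51, 0.44 and 0.22 on the control arrays and at -2.41, -2.21 and -2.40 on the overexpression arrays. No overexpression array came within 2 log2 units of a control array, and the difference was -2.73 (standard error 0.14, adjusted p = 3.9e-05 from limma). Akap1, which anchors protein kinase A at the outer membrane where it phosphorylates DRP1, had a difference of -1.19 (standard error 0.15, adjusted p = 8.89e-04 from limma), while its other probe was at -1.55. Marchf5, another outer membrane ubiquitin ligase, was higher by 0.68 on its brightest probe (adjusted p = 0.0044 from limma) and by 0.49 and 0.60 on 2 others, but lower on the fourth (-1.78, adjusted p = 0.0021 from limma). Ppp3ca, the catalytic subunit of the phosphatase calcineurin, which activates DRP1, was higher by 0.51 (adjusted p = 0.035 from limma), but was not called after quantile normalization. Of the 4 Marchf5 probes, the brightest (0.20) and that at 0.49 (0.30) were not called after quantile normalization, while the probes at 0.60 and -1.78 were (0.40 and -1.97, adjusted p = 0.024 and 0.0023 from limma).

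The other dynamins had 2 of 3 genes tested, Dnm1 and Dnm2, with differences of -0.10 and -0.07 and 0 calls. Over the 5 lists, 8 of 31 genes were called higher and 7 lower, against 35.4% and 18.4% of all probes. After quantile normalization 0 were called higher and 8 lower, against 22.9% and 20.6% of all probes.

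**Figure D5:**
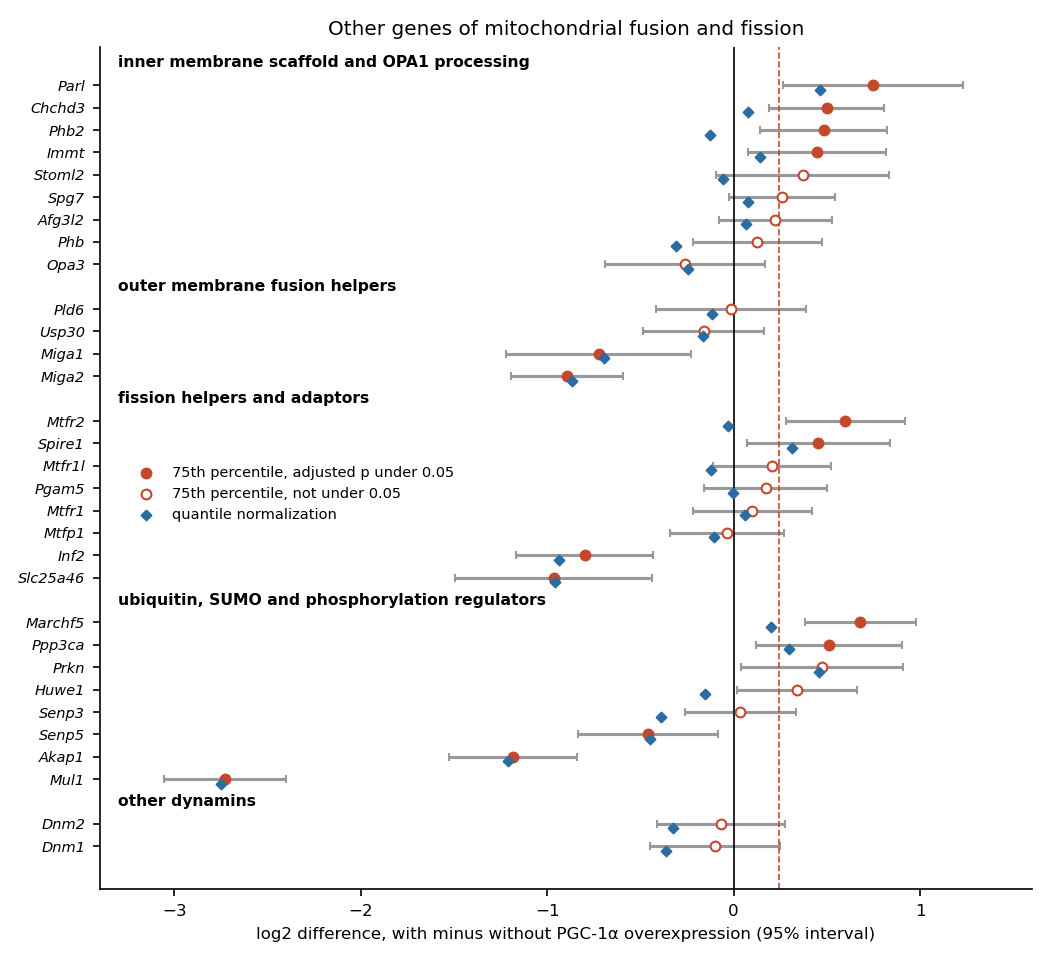
Log2 difference (x axis, with minus without PGC-1α overexpression) of the brightest probe of 31 other genes of mitochondrial fusion and fission (y axis, by list). Circles with 95% intervals show values relative to the 75th percentile, filled where the adjusted p was under 0.05, diamonds show quantile normalization, and the dashed line is the median of all probes at 0.25. Mul1 at -2.73 and Akap1 at -1.19 lie farthest to the left, and the filled circles right of 0 move toward 0 under quantile normalization.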

How the data were processed

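Gene expression was measured on 6 one-colour Agilent arrays of BV2 cells. Per the file headers, the authors' scanner software (Feature Extraction 11.5.1.1) gave background-subtracted intensity values for 62976 spots, in the green channel, although the methods name Cy5 and the labels Cy3. A second deposited table holds log2 values of 42110 probes, normalized by the authors in GeneSpring with a procedure not given in the sources used here, and served as an alternative. From the log2 intensity of every spot, the 75th percentile over the 59305 non-control spots of its array was subtracted. Spots marked as outliers (149 to 1590 an array) were left out and repeated spots averaged. Accessions of 33767 probes (59.7%) matched a RefSeq symbol. The design names an older genome build, so no probe coordinates are given. Testing required a value on 2 or more arrays in both groups, and a signal well above background on 3 of 3 arrays in 1 group or more. The number of arrays limits the precision.

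Each probe was tested in limma 3.58.1 (lmFit, then eBayes; R 4.3.3), two-sided, without covariates, adjusted over all 38919 probes. The steps were tested on simulated data. Genes were counted by their brightest tested probe, and all probes of the 10 genes were described. Of each related list, up to 2 called genes in each direction with the largest difference were named. Phb1 was matched through its older symbol Phb. The genes, lists, pairs and tests were chosen with earlier results of these data known. Alternatives were other scalings, normexp background correction with an offset of 50, filters, probe summaries, slide and replicate blocks, a variance trend, array weights and each array left out. The pairs within arrays under other scalings, and quantile normalization with the slide as a block, were added after seeing the data. Tables and plots used Python 3.11.15, pandas 2.3.3, numpy 2.4.6 and matplotlib 3.10.9.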

Additional observations from a re-analysis of the deposited data

How the results depend on the processing

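The brightest probes of Oma1, Mief1, Mief2 and Fis1 kept their direction and their call under all 21 alternatives that set no minimum log2 difference. Their differences were -1.71 to -1.25 for Oma1, -0.98 to -0.75 for Mief1, -0.85 to -0.60 for Mief2 and 0.44 to 0.94 for Fis1. The brightest probe of Mff no longer passed in 2 of 21 and that of Opa1 in 5 of 21 (3 with quantile normalization, the deposited values and the mean of its probes, at 0.20), while that of Yme1l1 passed in 5 (normexp with the 75th percentile, the slide as a block, a variance trend, array weights and without the second overexpression array). The dimmer probes of Fis1, Mff and Mief1 no longer passed in 12, 11 and 3 of 19. The count of 9 probes called became 5 after quantile normalization and 5 to 10 with 1 array left out, with 5 called without the first overexpression array. The 15 related genes called became 8 after quantile normalization, 9 with normexp and quantile normalization, 8 from the deposited log2 values, 9 with no filter on dim probes, 7 on slide 1 alone and 8 to 13 with 1 array left out (8 without any of the 3 control arrays and 9 without the first overexpression array). Requiring a log2 difference of at least 1 left 1 of the 10 genes (Oma1) and 2 related genes. Some differences that were not called changed sign. That of Mfn1 became -0.0034 with the median of each array and -0.051 as the mean of its probes, and ranged from -0.052 to 0.35 with 1 array left out, negative without the first overexpression array. The second Opa1 probe became 0.034 with array weights and ranged from -0.35 to 0.14, positive without the second overexpression array. Dnm1l became 0.12 with array weights and ranged from -0.28 to 0.25, with 0.098, 0.16 and 0.25 without control array 2, control array 3 and overexpression array 2. The Ppargc1a probe with the larger difference was at 0.18 with normexp and quantile normalization. The cause was not tested in any of these cases.

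Replicate numbers did not pair the samples, since the deviations of same-numbered arrays correlated at -0.21, 0.00 and 0.59. With the replicate block 6 genes, 9 probes and 14 related genes were called.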
